A study of Arabidopsis thaliana with 9 samples.

Results

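Chloroplasts keep a small genome of their own, which encodes a part of the photosynthetic complexes, of the plastid ribosome and of the plastid RNA polymerase, together with tRNAs and rRNAs. Most plastid proteins, including the light-harvesting proteins and the small subunit of Rubisco, are encoded in the nucleus. A chloroplast transcript is made inside the plastid, and its counts can serve as a measure of RNA from outside the nucleus in preparations of sorted nuclei. The 134 genes described here are all rows whose identifier starts with ATCG, of 38115 genes that the droplet and plate libraries have in common. The gene list of the WT and d14 libraries holds 36957 genes and 0 of them are chloroplast-genome genes, so those libraries were not used.

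All 7 libraries used here held nuclei of hypocotyls of a Col-0 line that carries PXY:H4-GFP and SMXL5:H2B-RFP, a pair of reporters for the cambium, the layer of stem cells that drives radial growth. Plants were 4 weeks old and had 10 h of light and 14 h of darkness a day. The 10x all hypocotyl library was a single droplet library (3′ counting from poly(A) priming) of nuclei sorted on Hoechst stain. VASA-seq, a plate method that adds poly(A) tails and so also captures RNA without them, was run with rRNA depletion on 3 plates of nuclei positive for GFP and/or RFP (VASA cambium) and 3 plates of nuclei taken without that gate (VASA all hypocotyl). The 3 plates of a gate came from 1 preparation of pooled hypocotyls, so that gate and preparation cannot be told apart and p-values measure the spread between plates only. All 6 plates use the same 384 well barcodes.

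Nuclei were kept with over 1200 counts and under 10000 (10x) or 15000 (VASA-seq), the count limits of the study. This left 2081 nuclei of the 10x library and 181 to 313 per plate (1588 in all). Both sets are slightly larger than those the paper reports, and its limit on fluorescence was not applied to the plates. The nuclei kept held 4607519 counts in the 10x library and 1148888 to 1822306 per plate. Wells at or under 1200 counts (low wells) numbered 53 to 176 per plate and 538 in all, and 6 wells per plate were blank, having received no nucleus. The cambium gate was not marked by more cambium transcripts. Of 7 reporters and cambium genes, among them PXY, WOX4 and ANT, 0 passed the test between gates (edgeR, described below) and 0 were called by DESeq2. Unadjusted p was under 0.05 for 2 of the 7 and for 2327 of all 16134 genes tested (edgeR). The largest log2 changes of the 7 (VASA cambium over VASA all hypocotyl) were -0.57 ± 0.19 for WOX4 and -0.44 ± 0.18 for HB-8 (SE). Their adjusted p was 0.178 and 0.283 (edgeR). Only H2BRFP had a positive change, 0.06 ± 0.22. The summed level of the 7 was 921 ± 88.4 CPM (counts scaled to a common total of 1000000) in VASA cambium and 1137 ± 119 in VASA all hypocotyl nuclei (SD, n = 3 plates each).

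Chloroplast-genome genes made up well under 1% of the counts of a nucleus preparation. In passing nuclei of VASA cambium their share was 0.702%, 0.854% and 0.536% on plates 1 to 3, and in VASA all hypocotyl nuclei 0.763%, 0.633% and 0.511%. The plates of the gates overlapped, with means of 0.697% ± 0.159 and 0.636% ± 0.126 (SD, n = 3). The difference of 0.0616 percentage points was smaller than the spread between plates (exact permutation test, two-sided, p = 0.7, where 3 plates against 3 cannot go below 0.1), and without cambium plate 2 it was -0.0167. The 10x library had 15134 chloroplast-genome counts, a share of 0.328% (exact binomial 95% interval 0.323 to 0.334%). The mean of the 3 VASA all hypocotyl plates was 1.94 times that value, and all 3 plates lay above it. The intervals given here and below cover counting error only, and the single 10x library has no replicate check. The paper describes separate hypocotyls for the 10x library and for the plates, so method and preparation cannot be told apart.

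Mitochondrial-genome genes, the 162 rows whose identifier starts with ATMG, are the set most like this one. Their share of passing nuclei was 1.67 to 2.30% on the 6 plates and 0.295% in 10x nuclei. The mean of the 3 VASA all hypocotyl plates was 6.54 times the 10x value. On these 3 plates the rows ATMG00020 and ATMG01390 alone held 86.9 to 88.7% of the mitochondrial counts of passing nuclei. All other mitochondrial rows there made up 0.204 to 0.260% of all counts, so the size of this ratio rests on 2 rows. No passing nucleus reached the limit of 20% mitochondrial counts that the study set.

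The chloroplast counts were spread over nuclei very unevenly. On the plates, 97.0 to 99.7% of passing nuclei had at least 1 chloroplast-genome count, against 87.4% in the 10x library. Thinned to 1200 counts each, the expected shares were 81.5 to 92.3% and 75.3%. Of the 6 blank wells of each plate, 33.3 to 100% also had such a count, which is the background level of this measure. The median passing nucleus of a plate had 8 to 14 chloroplast-genome counts, whereas the mean was 32.5 to 52.9 and the highest nucleus 477 to 1017. The 10% of nuclei with the most chloroplast counts held 61.3 to 70.2% of all chloroplast counts of their plate. For mitochondrial counts the same measure was 15.7 to 24.7%, and for all counts 19.9 to 22.6%. In the 10x library the chloroplast value was 66.2% and the mitochondrial value 74.1%. From 3 to 12 passing nuclei per plate, 39 in all, were over 5% chloroplast-genome counts, with a highest share of 26.4%.

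Within the 134 genes, counts were concentrated in a few. In passing nuclei of the plates, 5 genes held 54.6% of the 62902 chloroplast-genome counts, and in the 10x library the 5 leading genes held 30.8%. The levels below are CPM without regard to gene length. ATCG00020 had the most counts, with 1811, 1946 and 1552 CPM on the VASA cambium plates and 1638, 1515 and 1274 CPM on the VASA all hypocotyl plates, 24.3% of all chloroplast-genome counts. ATCG00490 followed at 562, 830 and 536 CPM in VASA cambium and 822, 597 and 527 CPM in VASA all hypocotyl nuclei. ATCG00020 lay above ATCG00490 on every plate, and both overlapped between gates. The next genes, ATCG00280, ATCG00350 and ATCG00340, lay at 283 to 653 CPM on the 6 plates, with ranges that overlapped each other and that of ATCG00490. The order of the 134 genes was much alike from plate to plate, with Spearman's rho of 0.946 to 0.984 between pairs of plates (across genes, which are not independent replicates). The identifiers are not paired with gene names in the deposited lists, and RefSeq names 6 of them only. No name or role is given for the others.

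**Figure D1:**
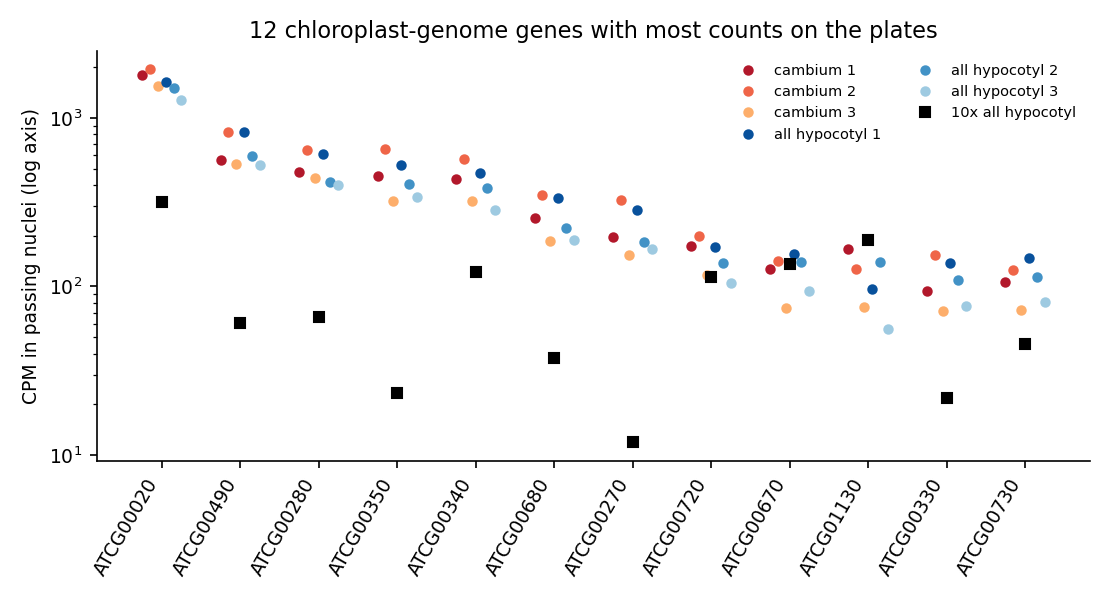
CPM in passing nuclei (log axis) of the 12 chloroplast-genome genes with most counts on the plates, 1 point per VASA-seq plate (reds, VASA cambium; blues, VASA all hypocotyl) and 1 square for the 10x library. Plates of the gates overlap for each gene, and the 10x library lies under all 3 VASA all hypocotyl plates for the 7 genes on the left.

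Of the genes with a RefSeq annotation, ATCG00670 encodes the plastid ClpP, a proteolytic subunit of the Clp protease. It had 127, 141 and 74.6 CPM on the VASA cambium plates and 156, 139 and 94.0 CPM on the VASA all hypocotyl plates. The 10x library, at 136 CPM, lay within that range. The plastid ribosomal proteins were lower: S11 (ATCG00750) had 32.1 ± 7.45 CPM in VASA cambium and 30.6 ± 16.8 CPM in VASA all hypocotyl nuclei, and L20 (ATCG00660) 18.1 ± 5.43 and 13.0 ± 6.06 CPM (SD, n = 3). ATCG00530, annotated as related to the envelope protein CemA, had 36.5 ± 12.5 and 29.1 ± 5.82 CPM. ATCG00430, annotated as photosystem II reaction center protein G, had 9.62 ± 0.79 and 9.11 ± 3.60 CPM. None of these 5 genes differed between gates beyond the spread of the plates, with adjusted p of 0.61 to 0.98 (edgeR, all genes). Ribosomal protein L2 (ATCG01310) had 0 counts in passing nuclei of the 6 plates and 1 in those of the 10x library.

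A set of identifiers was almost empty. Over all wells, 23 of the 134 genes had 0 counts on every plate, 25 had 0 counts in every 10x barcode and 19 had 0 in both, of which 18 lay in the numbered stretches ATCG00830 to ATCG01000 and ATCG01140 to ATCG01310. These stretches hold 37 of the genes, with 1.66% of the chloroplast-genome counts of the plates and 0.0727% of those of the 10x library. Most of the plate counts in them came from ATCG00950, with 47.1, 107 and 50.5 CPM on the VASA cambium plates and 67.6, 86.4 and 114 CPM on the VASA all hypocotyl plates. In the RefSeq chloroplast genome of assembly TAIR10.1 (154478 bases), a run of 26264 bases occurs in a pair of copies, and 31 of 129 annotated genes lie wholly inside them. Of all 50-base stretches, 33.9% have a second exact copy in the chloroplast genome, 2.42% in the nuclear chromosomes and 1.21% in the mitochondrial genome. How reads with several placements were counted is not given in the sources used here, and the part of repeated sequence in the empty rows was not tested.

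Between gates, no chloroplast-genome gene passed the test. Of the 134 genes, 76 had enough counts to be tested with edgeR's quasi-likelihood test (Benjamini-Hochberg FDR 0.05 over 16134 genes) and 0 were called, where 3.13% of all genes tested were called. At an unadjusted p under 0.05 there were 2 of 76, beside 2327 of all 16134 genes. DESeq2 called 0, where 2.89% of all genes were called. The median log2 change (VASA cambium over VASA all hypocotyl) was 0.13 over the 76 genes and -0.0045 over all genes. Leaving out 1 plate moved the median of the 76 genes between -0.07 without cambium plate 2 and 0.30 without all hypocotyl plate 1. The gene nearest to the threshold was ATCG00550, with 29.4, 24.5 and 22.5 CPM on the VASA cambium plates and 52.7, 35.8 and 41.8 CPM on the VASA all hypocotyl plates. Its groups did not overlap, and its log2 change was -0.78 ± 0.20 (SE, adjusted p = 0.0741, edgeR). Without a filter on low counts, 2 of 106 genes were called, both lower in VASA cambium (ATCG00550 and ATCG00010), where 2.18% of all 33407 genes were called lower.

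The nuclear genes that work with the chloroplast genome were read against the same 3.13% of all genes called between gates. Of the nuclear light-harvesting genes, which encode the antenna proteins of both photosystems, 17 of 20 were tested and 0 called, and their summed level was 3065 ± 401 CPM in VASA cambium and 3102 ± 187 CPM in VASA all hypocotyl nuclei (SD, n = 3). Of the 4 nuclear genes for the small subunit of Rubisco, 3 were tested and 0 called, with summed levels of 172 ± 35.4 and 161 ± 35.0 CPM. Of the 30 nuclear genes for photosystem subunits, the cytochrome b6f complex, the ATP synthase and electron carriers, all were tested and 0 called, at 1844 ± 143 and 1844 ± 94.0 CPM. Among 19 nuclear genes for plastid transcription, 16 were tested and 1 was called. At an unadjusted p under 0.05 there were 1, 0, 2 and 2 genes in these 4 lists, beside 2327 of all 16134 genes. DESeq2 called 0, 0, 0 and 1. The gene called was SIGE (AT5G24120), a sigma factor that directs the plastid-encoded RNA polymerase to promoters. It had 44.9 ± 4.17 CPM in VASA cambium and 22.2 ± 3.28 CPM in VASA all hypocotyl nuclei, a log2 change of 1.02 ± 0.18 (SE, adjusted p = 0.0149, edgeR). Its call held in 4 of the 6 fits that left out 1 plate, and its adjusted p was 0.0587 without cambium plate 2 and 0.0662 without all hypocotyl plate 1.

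The chloroplast share of low wells lay above that of nuclei on some plates and below it on others. Low wells have fewer counts of every kind by the rule that defines them, so their chloroplast counts are given without a test. Per low well the mean was 7.94, 2.18 and 2.81 counts on the VASA cambium plates and 5.28, 3.35 and 1.64 on the VASA all hypocotyl plates. Passing nuclei had 32.8, 52.9 and 33.4, and 45.5, 38.8 and 32.5, in the same order. On the log2 scale the mean change was -3.53, beside -3.70 for the total counts per well, which averaged 314 to 674 in low wells and 4676 to 6347 in passing nuclei. As a share of all counts, chloroplast-genome genes made up 1.18%, 0.695% and 0.695% of the low wells of VASA cambium and 0.970%, 0.726% and 0.408% of those of VASA all hypocotyl. The share was higher in low wells on 4 of 6 plates and lower on 2. The mean difference of 0.112 percentage points did not pass the test (exact sign-flip permutation test over plates, two-sided, p = 0.344), and was 0.0392 without cambium plate 1. As a mean of the shares of single wells it was 0.0277, higher on 2 of 6 plates. With a minimum of 2500 counts it was 0.346, higher on 5 of 6 plates (exact sign-flip permutation test, p = 0.0625).

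**Figure D2:**
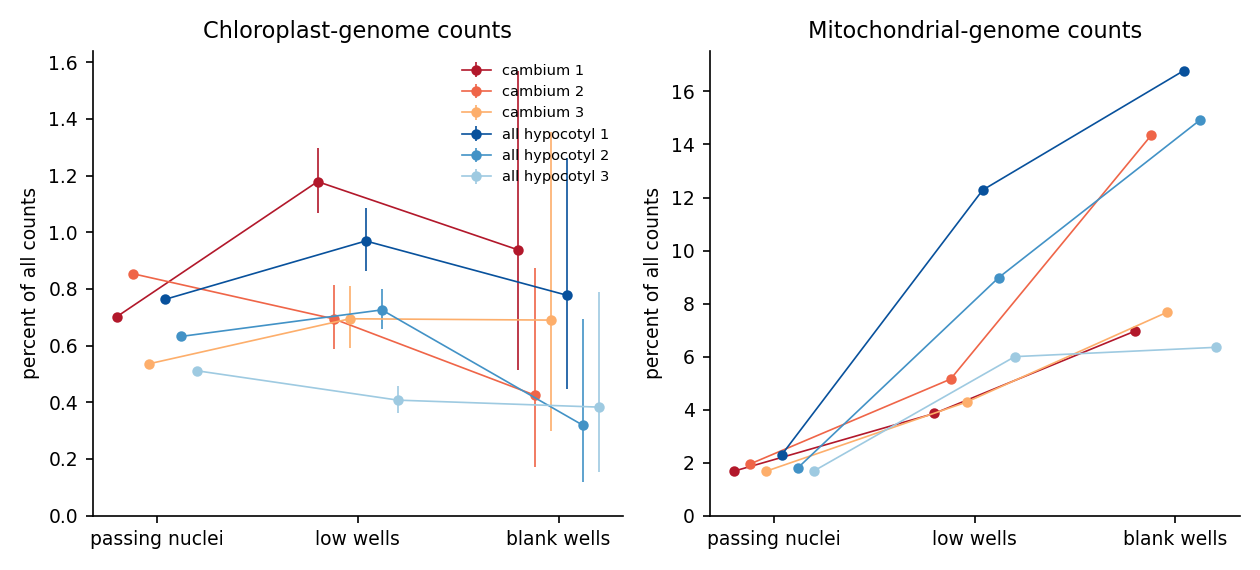
Percent of all counts from chloroplast-genome genes (left, with exact binomial 95% intervals) and mitochondrial-genome genes (right) in passing nuclei, low wells and blank wells of each VASA-seq plate, 1 line per plate. The chloroplast share lies between 0.319% and 1.18%. It has no common direction between passing nuclei and low or blank wells and is lower in blank than in low wells on all 6 plates, whereas the mitochondrial share is higher in low and in blank wells than in passing nuclei on all 6 plates.

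Blank wells gave the background of the plates. They held 1.00 to 2.67 chloroplast-genome counts each on average, and the highest blank well of a plate had 2 to 5. Their share was 0.938%, 0.426% and 0.690% on the VASA cambium plates and 0.778%, 0.319% and 0.383% on the VASA all hypocotyl plates, each from 6 to 16 chloroplast counts, so that the intervals are wide (0.514 to 1.57% for the highest). Against passing nuclei the share was higher on 3 plates and lower on 3, with a mean difference of -0.0774 percentage points (exact sign-flip permutation test, p = 0.5). Against low wells it was lower on 6 of 6 plates by a mean of 0.19 percentage points (exact sign-flip permutation test, p = 0.0312, the smallest that 6 plates can give). After Benjamini-Hochberg adjustment over the 14 tests of this kind made, this p was 0.0729, and none of the 14 was under 0.05. Nuclear light-harvesting and Rubisco small subunit genes made up 0.275 to 0.358% of the counts of passing nuclei, 0.259 to 0.364% of those of low wells and 0 to 0.259% of those of blank wells.

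The mitochondrial share behaved differently from the chloroplast share, through a pair of genes. It was 3.86%, 5.15% and 4.28% in the low wells of VASA cambium and 12.3%, 8.98% and 5.998% in those of VASA all hypocotyl, 2.30 to 5.33 times that of passing nuclei of the same plate. The chloroplast ratio was 0.797 to 1.68. The difference between the log2 changes averaged 1.58 and was positive on 6 of 6 plates (exact sign-flip permutation test, p = 0.0312, 0.0729 adjusted over the 14 tests). Only 2 mitochondrial rows, ATMG00020 and ATMG01390, held 95.6 to 98.5% of the mitochondrial counts of low wells and 86.9 to 91.5% of those of passing nuclei. Without them the difference was -0.43, positive on 2 of 6 plates (p = 0.188, exact sign-flip permutation test), and the rest of the mitochondrial rows had 0.462 to 1.62 times the share of passing nuclei. Of 24 mitochondrial rows tested gene by gene, these 2 were called higher in low wells and 0 lower.

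Gene by gene, few chloroplast-genome genes were called between low wells and passing nuclei. Few calls do not mean few differences, since in simulated counts this comparison recovered 9% of 100 genes with a log2 change of 1 in size. For a log2 change of 2 in size it recovered 55% of 100. The low wells held 22312 to 70637 counts per plate, and 52 of the 134 genes could be tested. With plate as a block, 1 was called higher and 0 lower, where 0.222% of all 10788 genes tested were called higher. At an unadjusted p under 0.05 there were 7 of 52, beside 1065 of all 10788 genes. DESeq2 gave an adjusted p for 7 of the 52 genes and called 1, ATCG00020, where 5.37% of the 540 genes with an adjusted p were called higher. The median log2 change was 0.05 over the 52 genes and -0.35 over all genes. Relative to all genes, the median of the 52 was 0.41 higher, and 0.44 higher with the size factors of DESeq2, which moved the median of all genes to -0.09. The gene called was ATCG01090, with 7, 1 and 3 counts in the low wells of VASA cambium and 1, 0 and 1 in those of VASA all hypocotyl. In CPM these were 196, 44.8 and 128, and 32.2, 0 and 14.2, against 5.22 to 21.0 in passing nuclei of the 6 plates. The log2 change was 2.16 ± 0.55 (SE, adjusted p = 0.0253, edgeR). DESeq2 gave no adjusted p for this gene. The call rests on 13 counts. It was kept without all hypocotyl plate 2 and in no other of the 6 fits that left out a plate, and without cambium plate 1 or 2 the gene had too few counts to be tested. The test for a different change in the gates called 0 members. Unadjusted p was under 0.05 for 4 of the 52, beside 426 of all 10788 genes. Within either gate alone 0 members were called, where 0.23% (VASA all hypocotyl) and 0.133% (VASA cambium) of all genes were called. Unadjusted p was under 0.05 for 2 of 50 members in VASA all hypocotyl, beside 635 of all 11289 genes. In VASA cambium it was 5 of 57, beside 864 of all 12034 genes. Of the 4 lists of nuclear genes, 17, 1, 30 and 11 genes could be tested here and 0 were called, with 1, 0, 1 and 0 at an unadjusted p under 0.05. DESeq2 gave an adjusted p for 5, 0, 1 and 0 of them and called 0, with 2 of the 5 light-harvesting genes at an unadjusted p under 0.05. With the minimum at 2500 counts, the low wells were all those at or under 2500. They then took in 28 to 72 wells per plate that are passing nuclei elsewhere. These wells held 51356 to 134341 counts per plate, beside 22312 to 70637 in the wells at or under 1200. In this setting 12 of 53 genes were called, all higher in the wells at or under 2500. Of all 11297 genes, 0.513% were called higher. Of the 53 genes, 51 had a positive log2 change, with a median of 0.66 against -0.02 over all genes. Unadjusted p was under 0.05 for 31 of the 53 and for 783 of all 11297 genes (edgeR).

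ATCG00020 made up more of the chloroplast counts in low wells than in nuclei. Its percent of all chloroplast-genome counts was 25.8%, 22.8% and 29.0% in passing nuclei of the VASA cambium plates and 34.4%, 51.0% and 37.4% in their low wells. In VASA all hypocotyl it was 21.5%, 24.0% and 24.9% in passing nuclei and 31.9%, 32.0% and 30.9% in low wells. Every low-well value lay above every value of passing nuclei, by a mean of 11.6 percentage points (exact sign-flip permutation test over 6 plates, p = 0.0312, 0.0729 adjusted over the 14 tests). Relative to all genes the same gene did not pass edgeR's test, with a log2 change of 0.71 ± 0.20 (SE, adjusted p = 0.0739), whereas DESeq2 gave 1.07 ± 0.17 (adjusted p = 1.04e-08).

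The composition of chloroplast counts also changed with their number in a nucleus. In nuclei with 1 to 20 chloroplast-genome counts, 41.5 to 48.2% of these counts came from ATCG00020 on the 6 plates. With 21 to 100 counts it was 24.9 to 34.6%, and with over 100 counts 15.1 to 20.2%. The ranges did not overlap. The low wells lay under the range of the nuclei with 1 to 20 counts, at 30.9 to 37.4%, on all plates but VASA cambium plate 2. On that plate the low wells lay above it, at 51.0%. Nuclei with over 100 counts were 6.16 to 11.9% of passing nuclei and held 52.4 to 69.6% of the chloroplast-genome counts. The 10x library showed 16.9%, 4.26% and 5.63% in the same 3 classes. This is a description, since both measures are taken from the same counts.

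Nuclei with over 100 chloroplast counts also had a higher share of nuclear photosynthesis transcripts than those with 1 to 20, without a steady order between. Light-harvesting and Rubisco small subunit genes made up 0.277 to 0.343% of the counts of nuclei with 1 to 20 chloroplast-genome counts and 0.318 to 0.689% of those of nuclei with over 100. In the class between, with 21 to 100, it was 0.233 to 0.355%, lower than in the first class on 3 of 6 plates. From the first to the last class the value was higher on 6 of 6 plates, by a mean of 0.179 percentage points (exact sign-flip permutation test over plates, p = 0.0312, 0.0729 adjusted over the 14 tests). These nuclei were also deeper, with median counts of 6117 to 9672 against 3892 to 5850. Mitochondrial counts made up 1.58 to 2.35% and 1.67 to 2.24% of the counts in these classes. In the 10x library, by contrast, the mitochondrial share was 0.206% in nuclei with 1 to 20 chloroplast-genome counts and 2.23% in the 24 nuclei with over 100. The parts of depth and of RNA from other cells in these values were not tested.

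**Figure D3:**
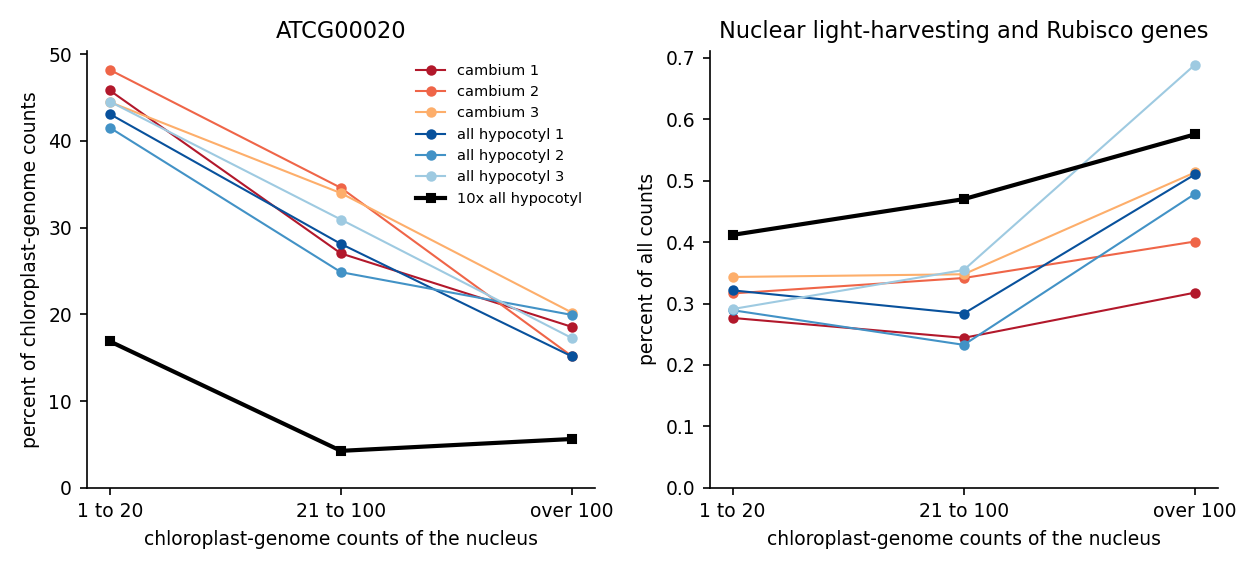
Passing nuclei in 3 classes by their number of chloroplast-genome counts, 1 line per VASA-seq plate and a black line for the 10x library. Left, percent of chloroplast-genome counts that come from ATCG00020, which falls from 41.5 to 48.2% in the first class to 15.1 to 20.2% in the last on the plates. Right, percent of all counts from nuclear light-harvesting and Rubisco small subunit genes, which is higher in the last class than in the first on all 6 plates, with the middle class lower than the first on 3.

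In the droplet library the chloroplast share depended strongly on the depth of a barcode. The 85421 barcodes with 100 to 1200 counts had a chloroplast share of 1.15% (exact binomial 95% interval 1.147 to 1.158%), 3.51 times that of passing nuclei. The mitochondrial share rose 1.39 times, from 0.295 to 0.409%. Of these barcodes 81389 had 100 to 300 counts, more than the nuclei sorted for the library, so droplets without a nucleus are among them. The chloroplast share went from 1.25% in barcodes with 100 to 300 counts through 0.941%, 0.473%, 0.359% and 0.301% to 0.246% in those with over 5000. The 818690 barcodes under 100 counts had 0.329%, and 9 barcodes over the upper limit had 0.0238%. On the plates no such order was seen: the median share of the 6 plates in the same 6 classes of depth was 0.607%, 0.517%, 0.789%, 0.801%, 0.656% and 0.595%, with ranges that overlapped throughout. The wells with 100 to 300 counts numbered as few as 6 on a plate. ATCG00020 was 19.7% of the chloroplast counts in 10x barcodes with 100 to 1200 counts and 9.72% in passing nuclei.

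**Figure D4:**
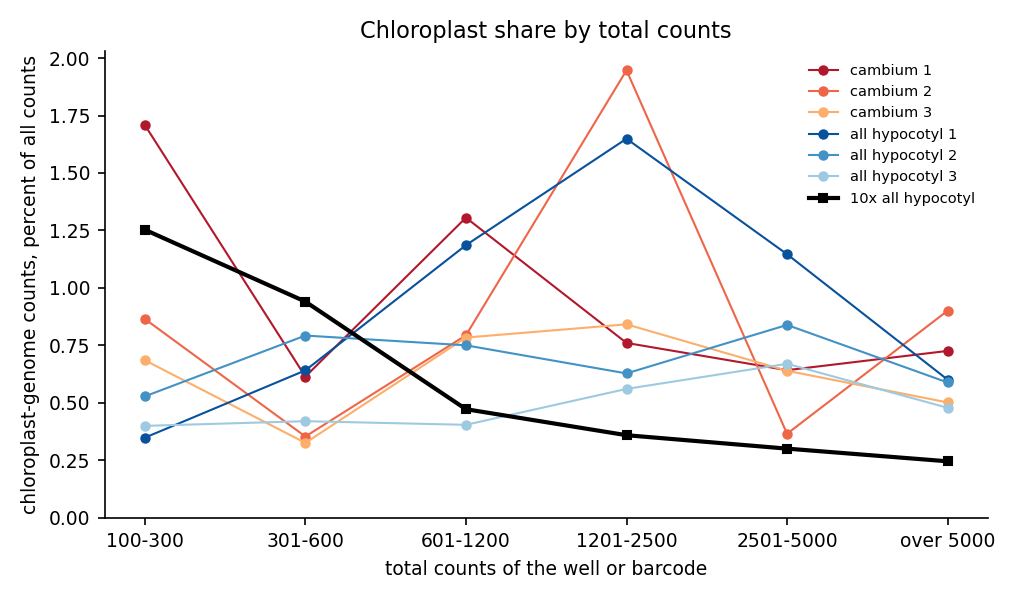
Percent of counts from chloroplast-genome genes against the total counts of the well or barcode in 6 classes, 1 line per VASA-seq plate and a black line for the 10x library. The 10x share falls from 1.25% to 0.246% with depth, whereas the plates show no common order. The 10x class with the fewest counts includes droplets without a nucleus.

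The 10x library and the plates also differed in which chloroplast-genome genes were counted. Method and preparation cannot be told apart here. With 1 droplet library there is no test, and a gene was called apart when its 10x CPM lay at least 2-fold above the highest or below the lowest of the 3 VASA all hypocotyl plates. Of 67 members with a mean of at least 10 CPM, 19 were lower in the 10x library, where 7.31% of all 15062 genes were called lower, and 15 were higher, where 16.9% of all genes were called higher. This mean is taken over both methods, so that 7 of the 15 higher genes passed it through the 10x library alone (under 10 CPM on the plates) and 6 of the 19 lower ones through the plates alone. The counts are therefore a description. Of 51 genes with at least 10 CPM in both methods, 13 were lower and 8 higher, where 5.44% and 13.5% of all 12928 genes were. At a mean of at least 50 CPM, 9 of 21 were lower and 6 higher, where 10.6% and 19.4% of all 5051 genes were. The median fold of the 67 genes (10x over the mean of the plates) was 0.824, against 1.19 for all genes and 0.434 for 27 mitochondrial rows, of which 11 were lower and 0 higher.

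The genes with most counts on the plates were among those lower in the 10x library. ATCG00490 had 60.8 CPM in the 10x library (exact Poisson 95% interval 53.9 to 68.3) against 822, 597 and 527 CPM on the VASA all hypocotyl plates, 0.0937 times their mean. In the other direction, ATCG01020 had 85.5 CPM in the 10x library against 9.74, 10.5 and 4.35 CPM on the plates, and ATCG00220 had 117 CPM against 13.8, 16.1 and 6.09 CPM, 10.4 and 9.79 times the means. ATCG01020 is among the 7 higher genes that passed the minimum of 10 CPM through the 10x library alone. ATCG00020, the leading gene of both methods, had 319 CPM in the 10x library, 0.216 times the mean of the plates. Of the 12 leading genes of the plates, 5 were among the 12 leading genes of the 10x library, and rho between the 10x library and the summed plates over the 99 genes above 0 in both was 0.664. Nuclear light-harvesting genes summed to 3844 CPM in the 10x library and 2889 to 3239 CPM on the VASA all hypocotyl plates. The 10x sum was 1.24 times the mean of the plates. The value of 1.19 for all genes is a median fold over single genes, another measure than this ratio of sums. Rubisco small subunit genes had 345 CPM against 124 to 193 CPM, 2.15 times the mean.

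**Figure D5:**
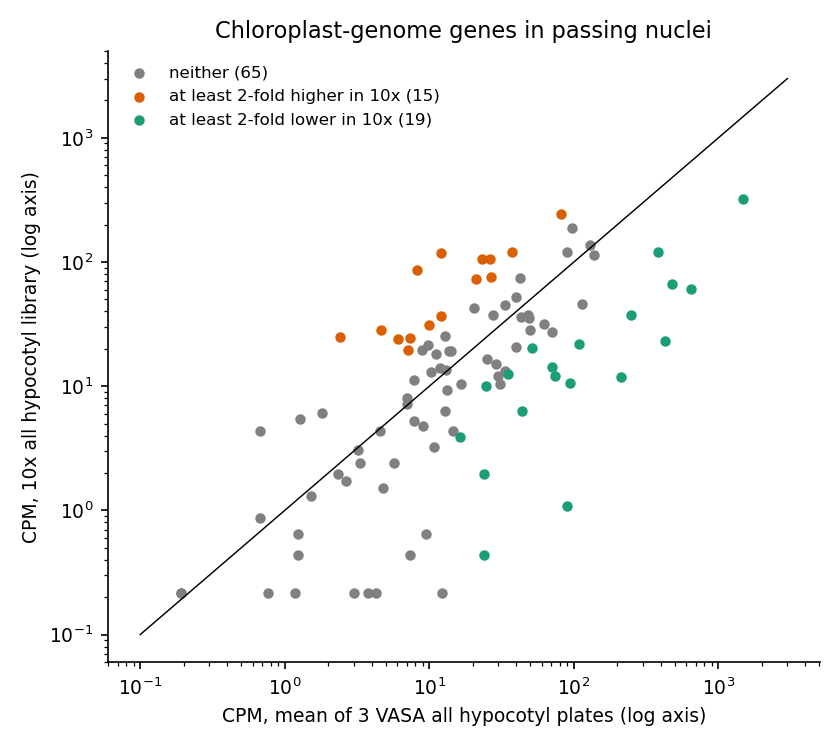
CPM of the chloroplast-genome genes above 0 in both methods, in passing nuclei of the 10x library against the mean of the 3 VASA all hypocotyl plates (log axes, the line marks equal values). The 19 genes called lower in the 10x library include those highest on the plates, and the 15 called higher lie at 2.43 to 81.5 CPM on the plates. Of these 15, 7 lie under 10 CPM on the plates.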

How the data were processed

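The deposited values are unscaled counts, integers for each gene in each barcode or well (unique molecular identifiers in the 10x library, unique fragment identifiers in VASA-seq). The authors made them with STAR 2.7.8a (STARsolo, introns included) against TAIR10 with H4GFP and H2BRFP added, per the labels and methods. The 92 ERCC rows were left out. The limit of the study on fluorescence was not applied, and doublets were not removed.

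Counts were summed per plate and class of wells. Shares are sums over wells divided by all counts, with exact (Clopper-Pearson) binomial 95% intervals. Plates were compared with exact permutation tests over plates (gates) or exact sign-flip tests (classes of wells of the same plate). Genes were tested with the quasi-likelihood test of edgeR 4.0.16 on TMM-scaled sums of all genes, with filterByExpr and an FDR of 0.05, with plate as a block for low wells. The planned test of chloroplast counts per well is not given, since the rule on total counts that defines low wells fixes its direction. DESeq2 1.42.0 was an alternative. CPM are counts per 1000000 counts of all genes. The scripts were tested on simulated data. SciPy 1.17.1 and matplotlib 3.10.9 were used.

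Chosen for naming were the 12 leading genes of each method and those called or nearest to a call. Those with a RefSeq (TAIR10.1) name and fixed lists of nuclear genes were added. The text names only a part of the leading genes. Since 128 identifiers have no RefSeq name, at most 2 that rose and 2 that fell are named per comparison. The genes psbA, rbcL, accD and rpoB, which the rule also held, could not be matched. Members and lists were chosen with earlier results of these data known. Plates with the same number were not paired: their deviations correlated at 0.13, -0.03 and 0.07.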

Additional observations from a re-analysis of the deposited data

Results flagged for a closer look

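In the low wells of VASA cambium plate 2, ATCG00020 made up 51.0% of the chloroplast-genome counts (79 of 155), far above the other 5 plates at 30.9 to 37.4%. Chance sets a plate apart in this way in about 1 of 20 sets of values, and 12 such sets were looked at. Wells over the upper limit of counts entered comparisons between groups only in the alternative without that limit. On 2 of 6 plates the exact binomial interval of their chloroplast share lay above that of the blank wells. The share was 1.47% on VASA cambium plate 3 and 0.874% on VASA all hypocotyl plate 3.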

How the results depend on the processing

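The counts of low wells limit what could be seen gene by gene: they hold 22312 to 70637 counts per plate, blank wells hold 1159 to 2056, and the 10x library has no replicate. With a plate left out, 5 plates cannot give a p under 0.0625, so those p-values say nothing about stability. Leaving out 1 plate gave a range of -0.0167 to 0.142 percentage points for the gates, 0.0392 to 0.166 for low wells, -0.14 to -0.00729 for blank wells, -3.82 to -3.31 (log2) for counts per well, 1.47 to 1.81 (log2) for mitochondrial minus chloroplast change, 8.32 to 12.8 percentage points for ATCG00020, 0.471 to 0.574 for the ratio of 10x to plates, 34 to 39 genes between 10x and plates, 0 genes between gates and 0 to 1 between low wells and nuclei. The gate difference was -0.0006 without all hypocotyl plate 3.

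Without the 2 leading mitochondrial rows, the mitochondrial minus chloroplast change was -0.43. Requiring a mean of 50 CPM left 15 genes apart between 10x and plates, and 10 CPM in both methods 21, and without a filter on low counts 2 were called between gates and 0 between low wells and nuclei. For the latter, scaling by library size and by nuclear-gene counts gave 2 each, and each gate alone 0. A minimum of 2500, which moved nuclei with up to 2500 counts to the low wells, gave 12. Over all genes, calls between gates numbered 505, and 1291 without the filter. Those between low wells and nuclei numbered 49, and 90 with library size only, 306 with no filter. The cause of these changes was not tested. With the replicate block the gate difference of the shares was 0.0616 and 0 members were called (edgeR). Unadjusted p was then under 0.05 for 8 of 76 members and for 2358 of all 16134 genes. The results within gates, the mitochondrial comparison, the share of ATCG00020 and the minimum in both methods were chosen after seeing the data. Differences in share moved with the measure but kept their sign and stayed short of the threshold. With nuclear-gene counts as denominator, the mean of single wells and no upper limit, they were 0.0624, 0.0237 and 0.107 percentage points between gates, 0.161, 0.0277 and 0.0629 for low wells (higher on 4, 2 and 3 of 6 plates) and -0.0169, -0.214 and -0.127 for blank wells.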

Other observations

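The wells over 15000 counts, 12 to 30 per plate and 142 in all, have more counts of every kind by the rule that defines them. Their mean total was 21004 to 25491 counts per well. A mean of 136 to 308 of these were chloroplast-genome counts, with a highest well of 385 to 2076, which is given as a description. Their chloroplast share was 0.558 to 1.47%, against a mitochondrial share of 0.556 to 0.869%, and ATCG00020 made up 10.0 to 22.8% of their chloroplast counts. Nuclear light-harvesting and Rubisco small subunit genes were 0.207 to 0.318% of their counts, against 0.275 to 0.358% in passing nuclei.

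Across passing nuclei of 1 library, the chloroplast share of a nucleus and its mitochondrial share rose weakly together, with Spearman's rho of 0.169 to 0.418 on the 6 plates (181 to 313 nuclei each) and 0.274 in the 10x library (2081 nuclei). The shares have the total count of the nucleus in common. With the share of nuclear light-harvesting and Rubisco small subunit genes, rho was -0.0282 to 0.15 on the plates and 0.0219 in 10x nuclei.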
